A study of Gallus gallus with 3 samples.

Results

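The genes of the translation initiation and elongation factors were followed in 3 RNA libraries of the chicken embryo vestibular organ. They were chosen by name, as every gene whose symbol in the deposited files starts with EIF or EEF followed by a digit, and this rule used no measured value. It found 59 of the 30108 genes in the files, 48 of them with an EIF and 11 with an EEF symbol. The label holds for most of them, but the names also bring in enzymes that act on the factors (kinases of eIF2 and eEF2, methyltransferases). They also bring in proteins that bind the cap-binding protein eIF4E, and *EEF1E1*, a component of the multi-tRNA synthetase complex.

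The study recorded hair cells of the semicircular canal cristae by patch clamp and then aspirated their cytoplasm for sequencing, in order to name the ion channels that type I and type II hair cells express. One library came from a single type I hair cell at E20, recognised by the low-voltage-activated K+ current *I*KL, and one from a single type II hair cell at E19, which lacked this current. The third came from ampullary cristae pooled from embryos at E16, where hair cells are mixed with supporting cells, nerve and blood. The labels name no strain, drug or genetic change for any of them, and polyadenylated RNA was amplified by template switching in each. Each condition has 1 library, so the values below stand without replicates and without tests, and a difference is given as a value only. According to the methods of the study, the whole crista also went through another cDNA kit and another library kit than the cells, and was read from both ends rather than one, although the labels give the same cDNA kit for each library. Age, number of cells, tissue and library preparation cannot be told apart in the comparisons with the whole crista, and in that mixed library fewer cells of a type cannot be told apart from less RNA per cell. Between the hair cells, cell type, age (E20 and E19) and the single cell sampled cannot be told apart either.

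Protein synthesis starts when eIF2 brings the initiator tRNA to the small ribosomal subunit. The eIF4 proteins bind the cap of the mRNA and unwind it, eIF3 holds the assembly together, and eIF1 and eIF1A help it to find the start codon. After eIF5 and eIF5B have helped the subunits to join, eEF1A delivers each aminoacyl-tRNA, the eEF1B proteins recharge eEF1A with GTP, and eEF2 moves the ribosome along. These proteins are used by every growing cell, so that most of their genes are usually counted among the housekeeping genes.

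The libraries hold 10779664 (type I), 11943061 (type II) and 67428006 (whole crista) estimated reads, and 2340, 2381 and 18001 genes had at least 1 read. Levels are given as estimated reads and as TPM. In TPM reads are divided by a length of the gene estimated for each library and scaled to the same total, so that genes of 1 library can be compared. Intervals in brackets are exact Poisson 95% intervals of the reads and cover counting error only, since amplified reads are not independent molecules. Of 14 hair cell markers with a symbol in the files, 9 had a read in the type I cell and 8 in the type II cell, led by *OCM1*, whereas *MYO7A*, *POU4F3*, *GFI1*, *CIB2* and *CALB2* had none. In TPM *OCM1* and *KCNA10* were higher than in the organ in both cells, and *CIB3* and *TMC1* in the type I cell alone. *CHRNA9*, *LOXHD1*, *MYO6*, *OTOF* and *STARD10* were lower than in the organ in both cells, so that a read is no sign of enrichment. Among the markers of other cell types, *GJB6* was the single one of 7 for supporting cells with a read in a hair cell, and its summed list stood at 349 (type I) and 374 TPM (type II). No marker of neurons (4), red cells (3) or endothelium (3) had a read in either hair cell, while the red cell list alone reached 30032 TPM in the whole crista. Among all genes with at least 10 reads in the whole crista, 84.6% had no read in either hair cell. The part of other cell types in the results was not tested.

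In the whole crista 58 of the 59 genes had a read, and the exception was *EIF4E1B*, the gene of an oocyte form of the cap-binding protein in other vertebrates. In the hair cells most of the machinery was not seen. At least 1 read was found for 19 genes in the type I cell and 18 in the type II cell, and 40 had none in either. Among the 58 genes read in the organ 39 were unread in both cells, or 67.2%, beside 84.6% of all genes with at least 10 reads in the whole crista. The 18 genes of the type II cell were all read in the type I cell too, where they made up 94.7% of the list. The additional gene was *EIF3E*, with 2 reads. Over all genes with at least 10 reads in the whole crista, 2190 were read in the type I cell and 2222 in the type II cell. Together these were 2483 genes read in either cell, so that most were shared there too.

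Over all genes with at least 10 reads in the whole crista, 13.6% were detected in the type I cell and 13.8% in the type II cell, against 32.8% and 31.0% of the 58 translation factor genes. Abundant genes were detected more often in general. Of the 1762 genes at 100 TPM or more in the organ, 41.9% had a read in the type I cell and 42.2% in the type II cell, and of the 30 translation factor genes at that level 13 (43.3%) and 12 (40.0%) had one. At 10 to 100 TPM the background was 15.3% and 15.2%, and 6 of 26 translation factor genes (23.1%) were read in each cell. At the higher level the genes were thus detected about as often as other genes. The counts of read and unread genes in each group below are to be read beside these background shares. With the whole crista thinned to the reads of the shallower hair cell, 57.97 of the 59 genes kept a read on average over 100 draws. Losses before the amplification step cannot be counted from reads, so that the cell may have held transcripts of a gene listed at 0.

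**Figure D1:**
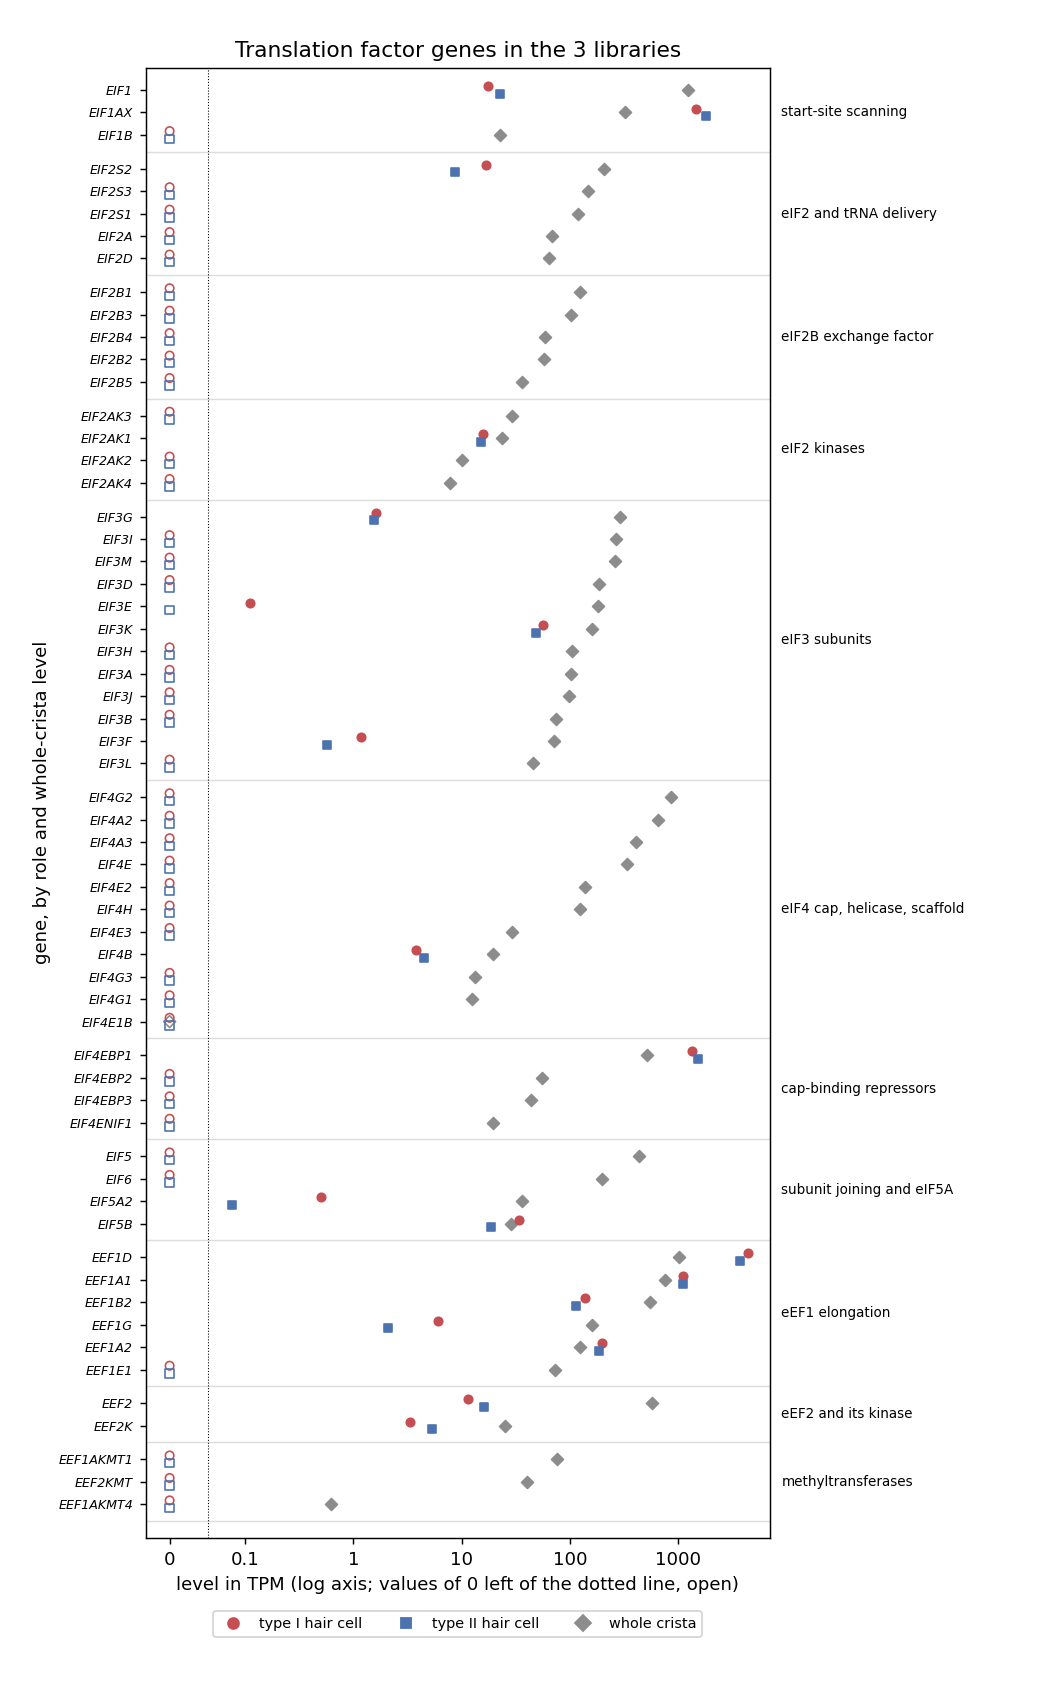
Level of each of the 59 genes in TPM (log axis) in the type I hair cell, the type II hair cell and the whole crista, 1 library each, grouped by role, with values of 0 drawn open to the left of the dotted line. Open symbols line the left edge for the 40 genes without a read in the hair cells, while *EEF1D*, *EIF1AX*, *EIF4EBP1*, *EEF1A1* and *EEF1A2* lie to the right of their whole-crista values in both cells.

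The eIF1 group holds the most abundant initiation factor of the hair cells and the most abundant one of the organ, and these were different genes. *EIF1AX* (ENSGALG00010002653, chromosome 1, 119908697 to 119917830), which encodes eIF1A, had 23445 estimated reads (23146 to 23747) in the type I cell, 33083 (32728 to 33441) in the type II cell and 14263 in the whole crista. Its level was 1476, 1798 and 326 TPM, so that in TPM it stood 4.52 times (type I) and 5.51 times (type II) as high in the hair cells as in the organ. As a share of the estimated reads of each library it stood 10.3 and 13.1 times as high, so that the size of this difference depends on the scale. *EIF1* (ENSGALG00010022682, chromosome 27, 4640423 to 4642236), its partner in start codon selection, showed the opposite order. It had 80 reads (63.4 to 99.6) in the type I cell, 115 (94.9 to 138) in the type II cell and 21386 in the whole crista. At 17.4 and 22.7 TPM it lay 71.0 and 54.5 times below the 1238 TPM of the organ, where it was the first of the 59 genes. *EIF1B*, a close relative of *EIF1*, was unread in the hair cells and had 1318 reads in the organ.

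Of the 3 subunits of eIF2, the carrier of the initiator tRNA, the β-subunit alone was seen in the hair cells. *EIF2S2* (chromosome 20, 1977643 to 1990052) had 130 reads (109 to 154) in the type I cell and 72 (56.3 to 90.7) in the type II cell, against 9986 in the whole crista, which corresponds to 16.7, 8.73 and 207 TPM. *EIF2S1*, the α-subunit that the stress kinases phosphorylate, and *EIF2S3*, the γ-subunit that binds GTP, had none, although the organ held 118 and 148 TPM of them. All 3 subunits stood at 100 TPM or more in the organ, where 41.9% (type I) and 42.2% (type II) of all genes had a read. A read for 1 of the 3 is not far from that share. *EIF2A* and *EIF2D*, alternative tRNA carriers, were likewise unread in the hair cells at 68.6 and 64.4 TPM in the organ.

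All 5 genes of eIF2B, which returns eIF2 to its active GTP form, were without a read in both hair cells. In the whole crista they ranged from 35.8 TPM for *EIF2B5* to 124 TPM for *EIF2B1*, a spread of 3.45 times within one complex. Most genes of these levels were unread in general. Reads were found for 15.3% (type I) and 15.2% (type II) of all genes at 10 to 100 TPM in the organ. At 100 TPM or more the shares were 41.9% and 42.2%. Of the 4 kinases that phosphorylate eIF2 and thereby lower initiation, the haem-regulated *EIF2AK1* (chromosome 14, 971301 to 987262) was the one with reads. It had 284 (252 to 319) in the type I, 285 (253 to 320) in the type II cell and 1925 in the whole crista. Its level of 15.8 and 15.1 TPM stood beside 23.5 TPM in the organ, at 0.673 and 0.640 times. *EIF2AK3*, the kinase of endoplasmic reticulum stress, had 28.9 TPM in the organ and no read in the cells. *EIF2AK2*, which senses double-stranded RNA, and *EIF2AK4*, which senses amino acid shortage, were also unread there, at 10.03 and 7.76 TPM in the organ.

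The files name 12 subunits of eIF3, the scaffold of the initiation complex, and *EIF3C* is not among the symbols. In the whole crista the 12 ranged from 45.1 TPM for *EIF3L* to 291 TPM for *EIF3G*, with a median of 133 TPM. *EIF3K* (ENSGALG00010009330, chromosome 38, 87120 to 89303), a small peripheral subunit, was the one with more than 100 reads in the hair cells. It had 387 reads (349 to 428) in the type I cell, 311 (277 to 348) in the type II cell and 4862 in the whole crista, equal to 56.2, 48.5 and 160 TPM. *EIF3F* followed with 10 reads (type I), 5 (type II) and 2794 (whole crista), or 1.17, 0.573 and 71.7 TPM. *EIF3G* had 8 and 7 reads in the cells, or 1.63 and 1.55 TPM. The 2 reads of *EIF3E* (0.242 to 7.22) in the type I cell, equal to 0.111 TPM, stood against none in the type II cell, a difference within counting error, and against 10042 reads or 180 TPM in the whole crista. The other 8 subunits, among them the large core subunits *EIF3A* and *EIF3B*, had no read in either cell and from 3296 to 20118 reads in the organ. *EIF3I* (268 TPM), *EIF3M* (261 TPM) and *EIF3D* (184 TPM) were the highest of these 8 there.

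The eIF4 group, which binds the cap, unwinds the leader and bridges the mRNA to the ribosome, held 4 of the 5 genes with the highest organ level among those unread in both hair cells. *EIF4G2* (ENSGALG00010021044, chromosome 5, 8424812 to 8436057), a scaffold related to eIF4G that lacks the binding site for the cap-binding protein, had 132104 reads (131393 to 132818) in the whole crista. This was the highest number of reads among the 59 genes, and with 853 TPM it was the third of them in level. Neither hair cell had a read. Against the limit of 3 reads that a count of 0 leaves in each library, its TPM was at least 10119-fold lower in the type I cell and at least 10773-fold lower in the type II cell. These bounds describe the amplified cDNA, not the cell before amplification. The helicase gene *EIF4A2* was second, with 45082 reads and 645 TPM in the organ. *EIF4A3*, known for its place in the exon junction complex, had 22238 reads and 409.5 TPM there, and *EIF4E*, the cap-binding protein itself, had 20314 reads and 334 TPM. The gene from outside the group was *EIF5*, which acts when the subunits join, at 435 TPM. *EIF4G1* and *EIF4G3*, the scaffolds that do bind the cap-binding protein, were scarce in the organ too, at 12.5 and 13.4 TPM. The relatives of the cap-binding protein *EIF4E2* (139 TPM) and *EIF4E3* (29.2 TPM) and the helicase helper *EIF4H* (125 TPM) had these levels in the organ and 0 reads in both cells. The single gene of the group with reads in the hair cells was *EIF4B*, another helper of the helicase, with 40 (28.6 to 54.5) in the type I cell and 45 (32.8 to 60.2) in the type II cell, or 3.74 and 4.45 TPM against 19.5 TPM in the organ.

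Whereas the cap-binding protein was unread, 1 of its repressors was among the most abundant genes of the hair cells. *EIF4EBP1* (ENSGALG00010019697, chromosome 22, 2418905 to 2423203) encodes a protein that blocks the contact of eIF4E with eIF4G until the mTOR kinase phosphorylates it. It had 10291 reads (10093 to 10492) in the type I cell, 12198 (11983 to 12416) in the type II cell and 17301 in the whole crista. Its level of 1335 and 1539 TPM was 2.59 and 2.99 times the 515 TPM of the organ. Over all genes with at least 1000 reads in both libraries, the median ratio to the organ was 2.88 (type I) and 3.14 (type II). *EIF4EBP1* was thus not raised beyond the typical gene of such read numbers. *EIF4EBP2* and *EIF4ENIF1*, the transporter of eIF4E into the nucleus, had no read in the hair cells at 55.2 and 19.7 TPM in the organ. The transcripts of *EIF4EBP2* have a length of 1848 bases in the files, above the RefSeq span of 1596 bases, and its value is uncertain to that extent. *EIF4EBP3* was unread in the cells as well, but its 13584 reads in the organ are uncertain. The files give its transcripts a mean length of 7413 bases, while the RefSeq gene of that symbol spans 878 bases, so that the counted transcripts reach beyond that gene.

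Of the genes that act when the subunits join, *EIF5B* (chromosome 1, 132664089 to 132694769), the GTPase of this step, had 1270 reads (1201 to 1342) in the type I cell and 737 (684.7 to 792) in the type II cell, and 4962 in the whole crista. At 34.0 and 18.5 TPM it lay on either side of the 28.5 TPM of the whole crista. *EIF5A2*, a variant of the factor that carries hypusine, had 6 reads (type I), 1 read (type II) and 1259 reads (whole crista), or 0.502, 0.0762 and 36.1 TPM, and *EIF5A* is not among the symbols of the files. *EIF5*, which makes eIF2 hydrolyse its GTP, and *EIF6*, which keeps free large subunits apart, had no read in the cells and 43695 and 18112 in the organ.

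Of the genes with an EEF symbol 7 of 11 were read in each hair cell, and of those with an EIF symbol 12 (type I) and 11 (type II) of 48. Among genes at 100 TPM or more in the organ these were 6 of 6 EEF genes in each cell and 7 (type I) and 6 (type II) of 24 EIF genes, beside the 41.9% and 42.2% of all genes. The EEF genes of that level were higher in the organ, with a median of 562 TPM against 203 TPM, and the difference was not tested. The 5 genes of eEF1A and eEF1B had reads in both hair cells, and *EEF1E1*, at 73.2 TPM in the organ, was the single one of its group without any. *EEF1D* (ENSGALG00010008561, chromosome 2, 147784259 to 147801317), one of the exchange factors that reload eEF1A with GTP, had 33849 reads (33489 to 34212) in the type I cell, 28076 (27749 to 28406) in the type II cell and 33399 in the whole crista. With 4425 and 3726 TPM it had the highest level of the 59 genes in both cells, the 20th and 27th of all genes, and 4.35 and 3.66 times its 1018 TPM in the organ. *EEF1A1* (ENSGALG00010001525, chromosome 3, 81193011 to 81197655), which delivers aminoacyl-tRNA, had the most reads of the 59 in the cells, 42933 (42528 to 43341) and 45553 (45136 to 45973), against 93350.5 in the organ. Its level was 1098, 1106 and 756 TPM. *EEF1A2* (chromosome 20, 9343587 to 9356747), in mammals the form of neurons and muscle, had 3578 (type I), 3152 (type II) and 10452 reads (whole crista). This gave 199 and 186 TPM in the cells and 123 TPM in the organ. *EEF1A1* and *EEF1A2* are near copies, and how the counting divided reads that match both was not examined.

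The other exchange and scaffold subunits did not follow *EEF1D*. *EEF1B2* (chromosome 7, 12189011 to 12193231), an exchange factor that works beside it, had 1813 reads in the type I cell, 1730 in the type II cell and 20131.5 in the whole crista, or 137, 115 and 553 TPM. *EEF1G*, which holds the exchange factors together, had 44 reads (32.0 to 59.1) in the type I cell and 14 (7.65 to 23.5) in the type II cell and 6210 in the organ, and its level of 6.08 and 2.09 TPM was 26.5 and 77.1 times below the 161 TPM found there. Within one complex the TPM ratio to the organ thus ran from 4.35 for *EEF1D* to 0.0378 for *EEF1G* in the type I cell, and from 3.66 to 0.0130 in the type II cell. Wide differences in this ratio were common among genes. Over all genes with at least 10 reads in both libraries, its log2 had an SD of 3.54 (type I) and 3.65 (type II).

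*EEF2* (ENSGALG00010027732, chromosome 28, 1878244 to 1886120), the translocase, had 249 reads (219 to 282) in the type I cell, 339 (304 to 377) in the type II cell and 71289 in the whole crista. Its level of 11.6 and 16.2 TPM was 49.3 and 35.2 times below the 570 TPM of the organ. *EEF2K* (chromosome 14, 8655740 to 8682393), the calcium- and calmodulin-dependent kinase that switches eEF2 off, had 151 reads (128 to 177) and 256 (226 to 289), or 3.35 and 5.26 TPM against 24.9 TPM in the organ. The kinase was thus closer to its level in the organ than its substrate was. The methyltransferase genes *EEF1AKMT1*, *EEF1AKMT4* and *EEF2KMT* had no read in the cells, at 76.6, 0.622 and 39.7 TPM in the organ, where *EEF1AKMT4* rested on 23 reads.

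**Figure D2:**
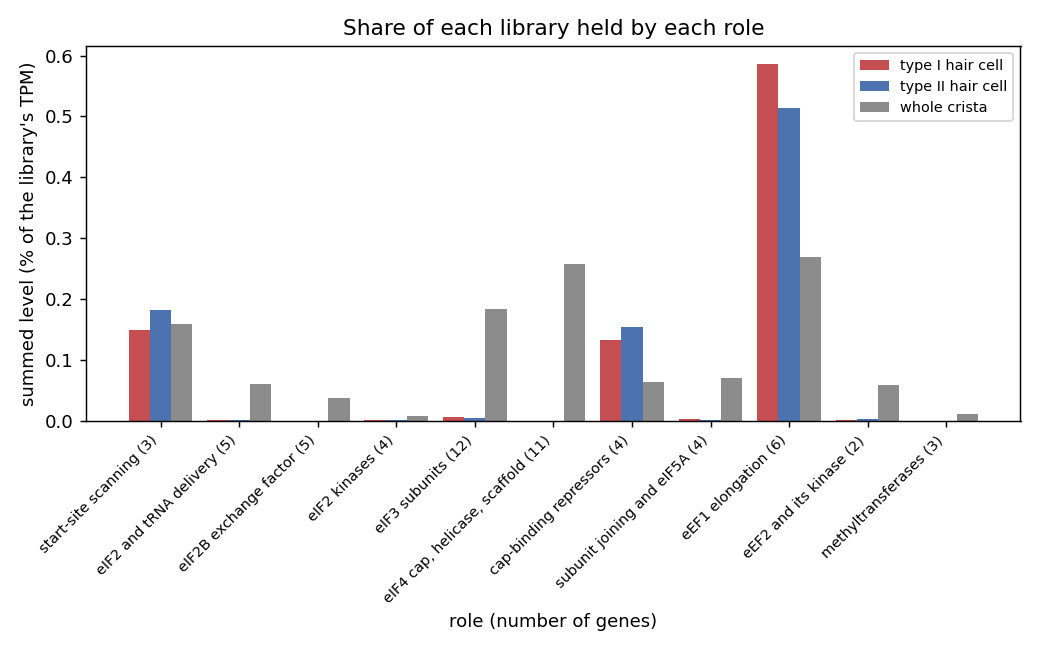
Summed TPM of the genes of each role as a percentage of each library, with the number of genes in brackets and 1 bar for each of the 3 libraries. The eIF3 and eIF4 groups, at 1841 and 2579 TPM in the whole crista, are near 0 in the hair cells, and the eEF1 group is the tallest in both hair cells, with most of it from *EEF1D*.

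Together the 59 genes held 0.884% of the TPM in the type I cell, 0.861% in the type II cell and 1.18% in the whole crista. The totals were of one order, but they were made up differently. In the hair cells 5 genes, *EEF1D*, *EIF1AX*, *EIF4EBP1*, *EEF1A1* and *EEF1A2*, held 96.5% (type I) and 97.0% (type II) of this TPM. In the organ the first 5 held 38.2%, and they were *EIF1*, *EEF1D*, *EIF4G2*, *EEF1A1* and *EIF4A2*. Genes with an EIF symbol summed to 0.296% and 0.346% of the TPM in the hair cells and 0.839% in the organ, whereas those with an EEF symbol summed to 0.588% and 0.516% against 0.340%. The latter order rests on *EEF1D*: without it the sums were 0.146%, 0.143% and 0.238%. In estimated reads, which are not divided by length, the EEF genes without *EEF1D* held 0.452% and 0.427% in the cells and 0.321% in the organ, so that their order depends on the scale.

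Relative to the whole crista, 3 of the 16 genes with 10 or more reads in each library were more than 2-fold higher in the type I cell and 9 were more than 2-fold lower. Over all 1751 such genes 38.0% were higher and 42.3% lower by this rule. In the type II cell 3 of 15 were higher and 8 lower, with 39.1% and 41.8% over all 1696 genes. The 3 higher genes were *EIF1AX*, *EEF1D* and *EIF4EBP1* in both. Over all genes with at least 1000 reads in both libraries, the median TPM ratio was 2.88 (type I) and 3.14 (type II). In each cell *EIF1AX* and *EEF1D* lay above this median, and *EIF4EBP1*, *EEF1A1*, *EEF1A2* and *EEF1B2* below it. In the type I cell *EIF5B*, at 1.19 times, was below it too. As log2 the median was 1.52 (type I) and 1.65 (type II), with an SD over genes of 2.03 and 2.07. *EIF1AX* stood at 2.18 and 2.46 and *EEF1D* at 2.12 and 1.87, so that both lay well within this spread. The 2-fold calls depend on the scale, because the length used for a gene in TPM can differ between libraries. In shares of estimated reads, which use no length, *EIF1AX* stood at 10.3 (type I) and 13.1 times (type II). *EEF1D* stood at 6.34 and 4.75 times and *EIF4EBP1* at 3.72 and 3.98 times. *EEF1A1* was also past 2-fold on this scale, at 2.88 (type I) and 2.76 times (type II). In the type I cell *EEF1A2* was so too, at 2.14 times, and *EEF1B2*, at 0.563 times, was no longer more than 2-fold lower. The filter asks for reads in the hair cell, and 43 (type I) and 44 (type II) of the 59 genes did not pass it. The median log2 ratio of those that passed was -1.76 and -1.72, beside -0.12 and -0.11 over all genes. With genes without a read set at the limit of 3 reads, 51 of 58 genes were more than 2-fold lower in the type I cell and 51 in the type II cell, beside 87.4% and 88.0% of all genes. These shares are alike, but an unread gene is called lower wherever its organ level is more than 2-fold above the limit. The likeness therefore largely follows from the limit, and no conclusion is drawn from it. Of the 58 genes 67.2% were unread in both cells, beside 84.6% of all genes. Both comparisons share the library of the whole crista, and they are not independent.

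**Figure D3:**
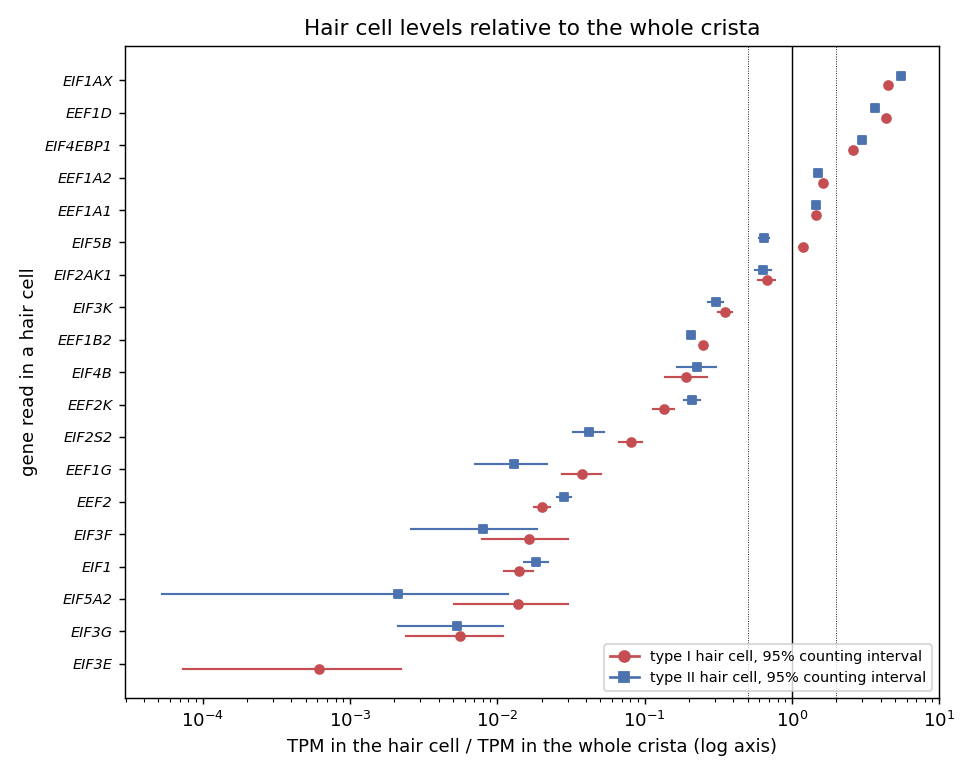
Ratio of the TPM in the type I (circles) or type II hair cell (squares) to the TPM in the whole crista, on a log axis, for the 19 genes with a read in a hair cell, with exact 95% counting intervals, a line at 1 and dotted lines at 2-fold. *EIF1AX*, *EEF1D* and *EIF4EBP1* lie right of the upper dotted line, *EEF1A1* and *EEF1A2* between 1 and 2, and *EIF3E* is shown for the type I hair cell alone.

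Between the hair cells the genes differed little. Where both cells had 10 reads or more (15 genes), *EEF1G* was the one past 2-fold in TPM, at 2.91 times higher in the type I cell (counting interval 1.57 to 5.75). Over the 1687 genes with as many reads, 5.99% were more than 2-fold higher in the type I cell and 1.01% more than 2-fold lower. The next ratios of type I to type II TPM were 1.91 for *EIF2S2* (1.42 to 2.58) and 1.84 for *EIF5B* (1.68 to 2.02), and at the other end 0.636 for *EEF2K* (0.517 to 0.781) and 0.713 for *EEF2* (0.603 to 0.842). *EIF3F* and *EIF5A2*, with ratios of 2.05 and 6.59, had fewer than 10 reads in a cell, and their counting intervals included 1. The median log2 ratio over the 15 genes was 0.07, beside 0.11 over all genes, and its SD over genes was 0.59 against 0.50. Several counting intervals were clear of 1, but counting error is narrower than the spread of these ratios among genes. In level the cells placed the 15 genes in nearly one order, with Spearman's rho of 0.97, against 0.57 for the type I (16 genes) and 0.57 for the type II cell with the organ. Both hair cell libraries were prepared with one kit, and the rho values describe genes, which are not replicates. No rho over all genes stands beside them, so that the likeness is not shown to be particular to the translation factor genes.

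**Figure D4:**
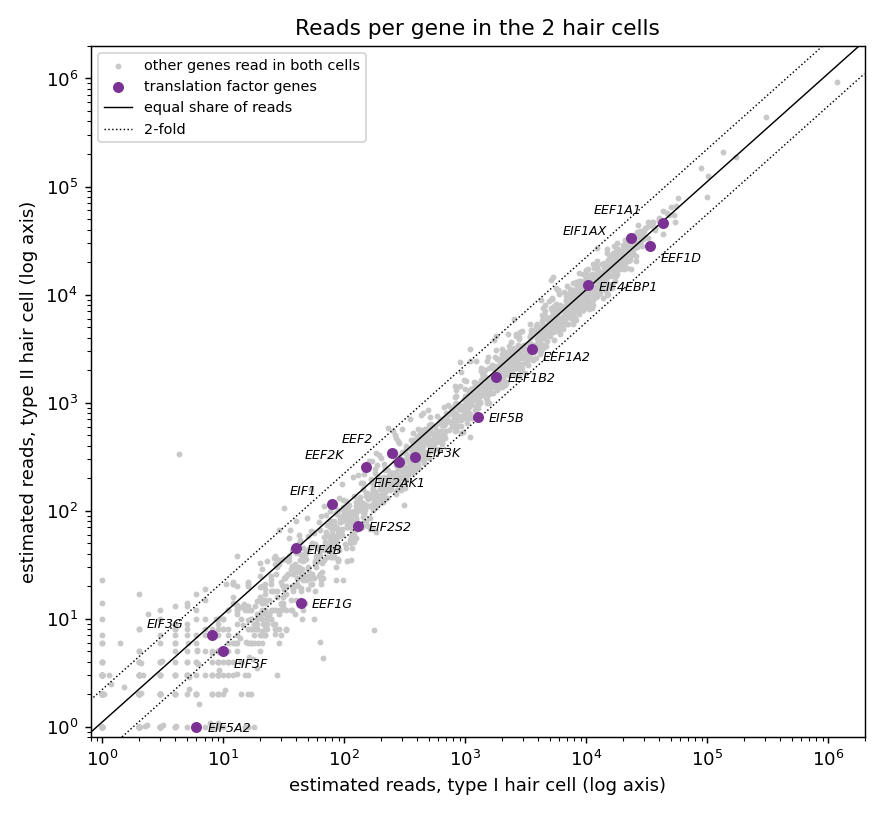
Estimated reads per gene in the type I (x axis) and type II hair cell (y axis), both on log axes, for genes with at least 1 read in both, with the 18 translation factor genes named and lines for an equal share of reads and 2-fold differences. *EEF1G*, with 44 and 14 reads, *EIF3F*, with 10 and 5, and *EIF5A2*, with 6 and 1, lie below the lower dotted line. *EIF2S2*, with 130 and 72 reads, lies almost on it.

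The genes read in a hair cell were not gathered at one place, as they lie on 14 numbered chromosomes, and *EEF1G* is on a sequence without a chromosome. Their transcripts had a median length of 1547 bases (733 to 4983), against 2124 bases (941 to 7413) for the 40 genes without a read. Over all genes with at least 10 reads in the organ the corresponding medians were 2757 and 2752 bases. Over all genes, read and unread genes were thus of nearly equal length. Of the translation factor genes, the 11 with at least 100 reads in both hair cells had a longer median, 2355 bases.

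From a list of 30 genes for termination, recycling, poly(A) binding, signalling and mitochondrial translation, 24 had a symbol in the files, and all 24 had a read in the whole crista. In each hair cell 3 of the 24 (12.5%) had reads, a share near the 13.6% and 13.8% of all genes given above. They were *PABPC1*, the poly(A)-binding protein, with 65.1 TPM (type I), 46.1 TPM (type II) and 229 TPM (whole crista), *MTIF3*, a mitochondrial initiation factor, with 19.0, 11.6 and 64.7 TPM, and *EEFSEC*, the elongation factor for selenocysteine, with 3.97, 3.51 and 17.8 TPM. Of 70 cytosolic ribosomal protein genes, 65 were read in the type I cell and 63 in the type II cell, and together they held 9.73% and 8.32% of the TPM, against 4.57% in the organ. They were also more abundant there, with 38 of the 70 at 500 TPM or more, a level chosen after the values were seen. All 38 were read in both cells, beside 71.9% (type I) and 72.9% (type II) of the 299 genes at that level and 6 of 8 translation factor genes. The difference between these gene groups was not tested.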

How the data were processed

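The authors deposited, per Ensembl gene and library, an estimated count (reads assigned to the gene, not always whole, not normalized between libraries). They also deposited TPM, which are relative to the other genes of the same library. The paper names the Illumina DRAGEN RNA pipeline with default settings and Ensembl GRCg7b for the whole organ. For the single cells no pipeline is given in the sources used here beyond the submitters' processing notes, which list DRAGEN and bcl2fastq 2.20.0.422 without a role. The deposited table of symbols, identical in the 3 libraries, names 15097 of 30108 genes. RefSeq positions on GRCg7b were matched by symbol for 58 of the 59 members.

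Detection meant 1 estimated read or more. Ratios are of deposited TPM, and calls of a 2-fold difference were made among genes with at least 10 reads in both libraries. Poisson and ratio intervals are exact, at 95%, and a count of 0 was given a limit of 3 reads (0.278, 0.251 and 0.0445 CPM in the type I, type II and whole-crista library). Intervals and limits cover counting error only. With 1 library per condition no test was made. Members, roles and lists were chosen with earlier results of these data known. All members are accounted for, and values in every library are given for *EIF4G2*, *EIF3K*, the 10 most abundant members by TPM of either hair cell, the 5 most abundant in the organ that were unread in the cells, and those read in 1 cell or past 2-fold between the cells. Sequences of promoters and proteins were not used here, so that a planned search of promoters was not run. One further list of cell type markers is not reported here. Ratios of read shares between the hair cells and the counting intervals were tried on simulated, independent reads. TPM ratios and the comparisons with the whole crista were not simulated. The software was Python 3.11.15 with scipy 1.17.1, pandas 2.3.3, numpy 2.4.6 and, for figures, matplotlib 3.10.9.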

Additional observations from a re-analysis of the deposited data

How the results depend on the processing

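No paired analysis was possible because each condition has 1 library. With at least 10 TPM required, the type I cell kept 12 members and the type II cell 11, with 11 shared, while the other thresholds and thinning moved no count by over 1.5 times. Between the hair cells the median log2 ratio was -0.072 with reads scaled by the median ratio of all genes, and the number past 2-fold was 2 on CPM (with *EIF2S2*), 0 with at least 100 reads in both and 3 with at least 1 read in both. Against the whole crista the median log2 ratio was -0.92 (type I) and -1.04 (type II) on CPM, and -0.85 and -0.95 on CPM without mitochondrial genes. No median over all genes stands beside these CPM values, so that a shift of the whole scale cannot be told from one of the members. In TPM the members' median also changed when it was set against that of all genes. The members' median was -1.64 and -1.62 after division of the TPM ratios by the median of all genes. With at least 100 reads in both it was -0.16 and -0.63, beside 0.71 and 0.77 over all genes with as many reads. With members without a read at the limit of 3 reads it was -8.09 and -8.16, and 54 members were past 2-fold in each cell. The share of the library held by the members was 1.10%, 1.05% and 1.23% in reads (type I, type II, whole crista), 0.983%, 1.01% and 1.21% of TPM without mitochondrial genes, and 0.441%, 0.489% and 1.06% without the member with the highest TPM. On CPM 1 of 18 single ratios between the cells changed sides of 1, that of *EEF1A1*, and none of those to the organ did. A median was taken as moved past 0.1.

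With 1 library per condition, no result has a check on biological spread. *EIF3E*, *EIF3F*, *EIF3G* and *EIF5A2* had fewer than 10 reads in at least 1 hair cell, which leaves wide counting intervals.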
